A study of Mus musculus with 6 samples.

Results

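The genes described here encode the subunits of respiratory complexes III and IV and of the ATP synthase, together with cytochrome c. They were taken by symbol from the platform annotation: symbols starting with Uqcr or Atp5, or with Cox followed by 4, 5, 6, 7 or 8, plus Cyc1 and Cycs. Each gene was read from probe sets with exactly 1 symbol, and from the probe set with the highest mean where there were several. This gave 44 of the 19938 genes tested: 9 of complex III, 17 of complex IV, 17 of the ATP synthase, and Cycs. Cox7c, another complex IV subunit, shares its probe sets with a second symbol and was not analysed here.

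The study set sanroque mice (Roquinsan/san), homozygous for a point mutation of the RNA-binding protein Roquin, against wild-type mice (Roquin+/+). All animals were C57BL/6 mice aged 10 weeks. CD8+ T cells with low surface CD44 were sorted from suspensions of spleen and lymph node, and the RNA of 3 sanroque and 3 wild-type samples was hybridised, each to its own Affymetrix array. Values are log2 intensities, and a log2 fold is the sanroque mean minus the wild-type mean. The labels call the samples biological replicates.

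In the inner mitochondrial membrane, complex III takes electrons from ubiquinol and hands them to cytochrome c, which carries them to complex IV, where oxygen is reduced to water. Both complexes pump protons, and the ATP synthase uses the proton gradient to make ATP through a membrane rotor, a catalytic head and a stalk that holds the head still. Resting T cells draw much of their ATP from this chain, and it is remodelled when they are activated. Nearly all subunits are nuclear genes, many of whose promoters carry sites for the factors NRF-1 and GABP.

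No member passed the test for a difference between genotypes. Of the 44 genes, 0 were called higher and 0 lower in sanroque cells (limma, p below 0.05 after Benjamini-Hochberg adjustment), where 5.77% of all genes were called, 3.26% higher and 2.51% lower. The lowest adjusted p was 0.0608, and at an unadjusted p below 0.05 there were 11 members lower, against 10.7% of all genes, and 0 higher. The direction was nearly uniform: the log2 fold was below 0 in 40 of the 44 members, against 61.5% of all genes. The median log2 fold was -0.15 in the members and -0.03 over all genes, and the members' median corresponds to a level 9.75% lower in sanroque. In 12 members every sanroque array was below every wild-type array, against 13.2% of all genes, and in 0 members was every sanroque array above, against 9.46% of all genes.

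The shares over all genes depended on brightness. Among the 5583 genes with a mean log2 of at least 8, 24.2% had all sanroque arrays below all wild-type arrays, and 23.3% had an unadjusted p below 0.05 with a lower level. Of the 34 members this bright, the counts were 12 and 11. Calls after adjustment made up 9.87% of all genes of this brightness, 3.49% higher and 6.38% lower, against 0 of the 34 members. The log2 fold was below 0 in 32 of the 34 members, against 58.7% of all genes of this brightness, and the median log2 fold was -0.16 for these members and -0.05 for all such genes. In simulated data of this size limma called 1.34% of log2 changes of 0.25, 50.4% of changes of 0.5 and 96.7% of changes of 1. Those data had 200 of 19938 genes changed, where 1151 were called here. Adjustment depends on that number, so these shares do not give the recovery in the real arrays.

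**Figure D1:**
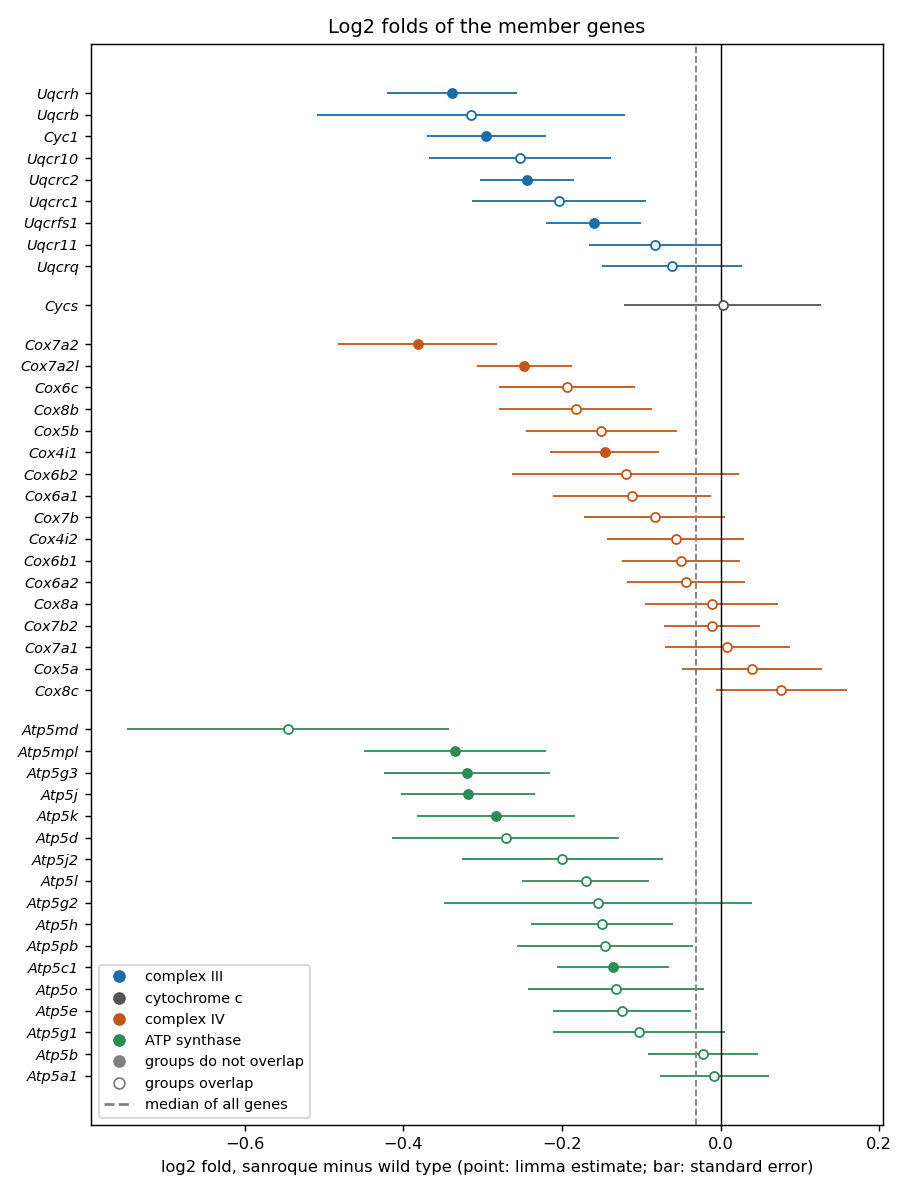
Log2 fold of each of the 44 genes, sanroque minus wild type, with limma's standard error, grouped by complex; filled points mark genes whose 3 sanroque and 3 wild-type arrays do not overlap, and the dashed line marks the median of all genes at -0.03. Points lie left of 0 in 40 genes, and the 12 filled points are all on that side.

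Of the 12 members whose groups did not overlap, 4 had a promoter with NRF-1 or GABP letters before the start site: Uqcrh of complex III, and Atp5c1, Atp5j and Atp5k of the ATP synthase. Their promoters are shown for that reason. Atp5g3, also among the 12, had an NRF-1 match after its start site. Uqcrc2, Cyc1, Cox4i1 and Atp5mpl, also among the 12, had no promoter entry and could not be searched. The share of all genes with a match before the start site was not computed. The sequences are the 250 bases before the start site from RefSeq, build GRCm38.p6, minus strand, read 5′ to 3′ in the direction of transcription, with matches in capitals. They lie at chr4:116075071-116075320 for Uqcrh, at chr2:10080433-10080682 for Atp5c1, at chr16:84834977-84835226 for Atp5j and at chr5:108434400-108434649 for Atp5k.
Uqcrh: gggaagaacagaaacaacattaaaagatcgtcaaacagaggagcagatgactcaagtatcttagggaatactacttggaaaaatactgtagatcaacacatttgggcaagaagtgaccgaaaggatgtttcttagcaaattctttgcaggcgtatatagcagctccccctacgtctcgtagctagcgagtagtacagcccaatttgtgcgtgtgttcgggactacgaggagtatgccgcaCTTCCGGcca
Atp5c1: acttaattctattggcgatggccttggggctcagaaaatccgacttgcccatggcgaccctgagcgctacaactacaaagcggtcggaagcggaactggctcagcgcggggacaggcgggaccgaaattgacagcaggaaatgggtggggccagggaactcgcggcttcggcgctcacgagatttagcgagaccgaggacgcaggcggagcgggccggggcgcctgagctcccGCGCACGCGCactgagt
Atp5j: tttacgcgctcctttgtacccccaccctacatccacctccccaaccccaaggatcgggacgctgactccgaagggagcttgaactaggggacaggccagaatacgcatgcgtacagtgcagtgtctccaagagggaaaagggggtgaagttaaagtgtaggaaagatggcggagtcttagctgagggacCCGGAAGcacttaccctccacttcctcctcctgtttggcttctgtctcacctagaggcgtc
Atp5k: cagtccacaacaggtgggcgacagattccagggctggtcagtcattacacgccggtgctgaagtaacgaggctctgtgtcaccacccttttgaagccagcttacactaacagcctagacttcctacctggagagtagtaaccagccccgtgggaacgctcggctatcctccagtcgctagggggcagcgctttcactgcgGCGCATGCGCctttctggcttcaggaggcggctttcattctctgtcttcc
The capitals are a GABP match in Uqcrh and Atp5j, and an NRF-1 match in Atp5c1 and Atp5k. The letters searched on both strands were GCGCA and GCGC with any 1 base between them for NRF-1, and CCGGAAG for GABP, over 250 bases before and 50 after each start site. Of the 33 members with a promoter in the table, 8 held an NRF-1 match (24.2%), against 5.19% of all genes in the table. A GABP match was held by 11 members (33.3%), against 9.93% of all genes, and either was held by 16 members (48.5%), against 14.0%. The 27025 genes in the table were not limited to the genes tested here. Shares among genes as bright as the members were not computed. The members without an entry were Atp5a1, Atp5mpl, Cox4i1, Cox4i2, Cox6a2, Cox6c, Cox8c, Cyc1, Uqcrb, Uqcrc2 and Uqcrq. A match describes the letters in the window and does not show binding. Cycs, which had a log2 fold near 0, had no match in its window, and neither did Uqcrfs1, Cox7a2 and Cox7a2l, whose groups did not overlap.

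Complex III held its members on the same side throughout. All 9 had a log2 fold below 0, between -0.34 and -0.06 with a median of -0.24, and in 4 of them the groups did not overlap with sanroque lower, as in 13.2% of all genes and 24.2% of those with a mean log2 of at least 8. Uqcrc2, a core protein of the matrix side, read 11.06, 11.07 and 11.07 in sanroque replicates 1 to 3, against 11.32, 11.30 and 11.31 in wild type replicates 1 to 3. The arrays of each genotype nearly coincided, and the groups were clear of each other. Its log2 fold was -0.24 ± 0.06 (standard error, limma, adjusted p = 0.0608), with a 95% interval of -0.38 to -0.11. Cyc1 encodes cytochrome c1, the heme protein that passes the electron on to cytochrome c. It read 9.33, 9.17 and 9.27 in sanroque, against 9.63, 9.51 and 9.52 in wild type, and again no sanroque array reached a wild-type one. Its log2 fold stood at -0.30 ± 0.08 (limma, adjusted p = 0.0708). Uqcrfs1, the Rieske iron-sulfur protein and the partner of cytochrome c1 in this step, read 7.98, 7.999 and 7.95 in sanroque, against 8.13, 8.16 and 8.12 in wild type. Its groups did not overlap either, with a log2 fold of -0.16 ± 0.06. The remaining core protein gene, Uqcrc1, had a log2 fold of -0.20 ± 0.11, and its groups overlapped through sanroque replicate 3.

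Among the small subunits of complex III, Uqcrh, the acidic hinge protein that helps cytochrome c dock, read 10.28, 10.41 and 10.49 in sanroque, against 10.83, 10.67 and 10.69 in wild type. All sanroque arrays were lower, and the log2 fold was -0.34 ± 0.08 (limma, adjusted p = 0.0616). Uqcrb, a small subunit near the ubiquinone-binding site, read 10.26, 10.13 and 10.24 in sanroque, against 10.77, 10.78 and 10.04 in wild type. Wild type replicate 3 lay below all 3 sanroque arrays, and the other wild-type arrays lay well above them. The log2 fold of Uqcrb was -0.32 ± 0.19 with all arrays and turned on single wild-type arrays. It was -0.56 without wild type replicate 3, where it passed (limma, adjusted p = 0.024), and -0.19 without replicate 1 or without replicate 2 of wild type (limma, adjusted p = 0.835 and 0.681). Its dimmer probe sets gave log2 folds of -0.44 and -0.22. Uqcr10, Uqcr11 and Uqcrq, the other small subunits, had log2 folds of -0.25, -0.08 and -0.06, with overlapping groups.

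Cytochrome c had a log2 fold close to 0. Its gene Cycs, for the mobile carrier that also activates caspases when it leaves the mitochondrion, read 10.17, 10.24 and 10.14 in sanroque, against 10.26, 10.38 and 9.90 in wild type. The sanroque arrays lay inside the wild-type range, and wild type replicate 3 was again the lowest. The log2 fold was 0.00 ± 0.12, with a 95% interval of -0.29 to 0.29 that takes in the median of complex III. Leaving that array out gave -0.14. A further Cycs probe set gave -0.01, and a dim one with a mean log2 of 5.21 gave 0.43; neither passed.

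Complex IV had a median log2 fold of -0.08, the closest to 0 of the 3 complexes, and 14 of its 17 members were below 0. The difference between complexes was not tested. Its genes fall into subunits found in most tissues and isoforms of heart and muscle, testis or lung. The 9 common subunits had a median of -0.11 and the 7 tissue isoforms one of -0.04. Cox7a2, the common form of subunit 7a, read 7.98, 8.15 and 8.18 in sanroque, against 8.62, 8.52 and 8.31 in wild type. No sanroque array reached the lowest wild-type one, which was replicate 3. The log2 fold was -0.38 ± 0.10 (limma, adjusted p = 0.0778), and without wild type replicate 3 it was -0.47 and passed (limma, adjusted p = 0.0439). Cox7a2l is a relative of that subunit, classed as a factor for supercomplexes of complexes III and IV. It read 10.25, 10.29 and 10.26 in sanroque, against 10.52, 10.53 and 10.49 in wild type. Like those of Uqcrc2, its arrays were close within each genotype and apart between them. The log2 fold was -0.25 ± 0.06 (limma, adjusted p = 0.0611). A second Cox7a2l probe set gave -0.21. Cox4i1, the common form of the regulatory subunit 4, read 9.71, 9.76 and 9.69 in sanroque, against 9.89, 9.92 and 9.78 in wild type, again without overlap. Its log2 fold was -0.15 ± 0.07.

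Other common subunits of complex IV overlapped between genotypes. Cox6c, a small membrane subunit, read 10.46, 10.47 and 10.62 in sanroque, against 10.69, 10.83 and 10.61 in wild type. Sanroque replicate 3 passed wild type replicate 3, and the log2 fold was -0.19 ± 0.09. Cox5b, Cox6a1, Cox7b, Cox6b1 and Cox8a had log2 folds between -0.15 and -0.01. Cox5a, a subunit of the matrix side, read 8.73, 8.68 and 8.66 in sanroque, against 8.70, 8.77 and 8.48 in wild type. It was the only common subunit above 0, at 0.04 ± 0.09, with a 95% interval of -0.17 to 0.25. It is singled out here after its value was seen, as are Cox8c, Cox7a1 and Cycs, the other members above 0.

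The tissue isoforms of complex IV were dim, with mean log2 levels between 3.72 for Cox7b2, a testis form, and 6.72 for Cox6a2, a heart and muscle form. Cox6a2 read 6.75, 6.72 and 6.61 in sanroque, against 6.66, 6.76 and 6.80 in wild type, with groups that overlapped and a log2 fold of -0.04 ± 0.07. Cox8b, a heart and muscle form of subunit 8 in mice, had the largest absolute log2 fold of these isoforms, at -0.18 ± 0.10. It read 4.96, 5.06 and 5.10 in sanroque, against 5.30, 5.04 and 5.34 in wild type. Wild type replicate 2 lay among the sanroque arrays, and the log2 fold was -0.28 without it. Cox6b2 and Cox4i2, forms of testis and lung, had log2 folds of -0.12 and -0.06, and Cox7b2 one of -0.01. Cox8c, a testis form, read 5.97, 5.92 and 5.78 in sanroque, against 5.76, 5.75 and 5.92 in wild type, with a log2 fold of 0.08 ± 0.08. Cox7a1, a heart and muscle form, read 4.69, 4.62 and 4.72 in sanroque, against 4.68, 4.55 and 4.78 in wild type, with a log2 fold of 0.01 ± 0.08. Both overlapped between genotypes. How much of the signal of these dim probe sets is background was not tested.

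All 17 ATP synthase members had a log2 fold below 0, with a median of -0.15. By position in the enzyme, the 5 genes of the F1 head and central stalk had a median of -0.12, the 3 genes of the rotor ring one of -0.15, and the 9 genes of the peripheral stalk and membrane part one of -0.20. Atp5b, the catalytic beta subunit, read 12.31, 12.28 and 12.24 in sanroque, against 12.37, 12.32 and 12.21 in wild type. The ranges overlapped almost fully, and the log2 fold was -0.02 ± 0.07, with a 95% interval of -0.19 to 0.14. Atp5a1, the alpha subunit that alternates with beta in the head, likewise had a log2 fold of -0.01 ± 0.07, with a 95% interval of -0.17 to 0.15. Atp5c1, the gamma subunit that turns inside the head, read 11.95, 11.91 and 11.81 in sanroque, against 11.99, 12.09 and 11.997 in wild type. These groups did not overlap, by a narrow margin, with a log2 fold of -0.14 ± 0.07. Atp5d, the delta subunit at the foot of that shaft, read 10.27, 10.24 and 10.74 in sanroque, against 10.83, 10.62 and 10.62 in wild type. Sanroque replicate 3 stood with the wild-type arrays. The log2 fold of Atp5d was -0.27 ± 0.14, and -0.43 without sanroque replicate 3, where it passed (limma, adjusted p = 0.0475). Atp5e, the epsilon subunit, had a log2 fold of -0.12 ± 0.09.

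The rotor ring is built of identical proteins encoded by Atp5g1, Atp5g2 and Atp5g3, which differ in the targeting peptide that is cut off after import. Atp5g3 read 9.94, 9.78 and 10.05 in sanroque, against 10.39, 10.09 and 10.25 in wild type. No sanroque array reached a wild-type one. The difference was -0.32 ± 0.10 on the log2 scale (limma, adjusted p = 0.142). Atp5g2 read 10.06, 10.35 and 10.91 in sanroque, against 10.62, 10.60 and 10.56 in wild type. The sanroque arrays lay on both sides of the tightly grouped wild-type arrays, with replicate 3 the highest of all 6. The log2 fold was -0.15 ± 0.19, and it was 0.04 without sanroque replicate 1 and -0.39 without sanroque replicate 3. Atp5g1 had a log2 fold of -0.10 ± 0.11.

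The peripheral stalk keeps the head from turning with the rotor. Atp5j, coupling factor 6 of that stalk, read 10.26, 10.30 and 10.47 in sanroque, against 10.77, 10.59 and 10.63 in wild type. All sanroque arrays were lower. Its log2 fold stood at -0.32 ± 0.08 (limma, adjusted p = 0.08). Atp5h, subunit d of the stalk, read 11.35, 11.40 and 11.28 in sanroque, against 11.52, 11.62 and 11.33 in wild type. Wild type replicate 3 lay between sanroque arrays, and the log2 fold was -0.15 ± 0.09. It was -0.23 without wild type replicate 3 and -0.084 without wild type replicate 2, and passed in neither. The stalk genes Atp5o and Atp5pb had log2 folds of -0.13 and -0.15.

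Small membrane subunits hold ATP synthase dimers together. Atp5k, subunit e, read 8.30, 8.45 and 8.64 in sanroque, against 8.82, 8.76 and 8.66 in wild type, with a log2 fold of -0.28 ± 0.10. Atp5mpl, a proteolipid attached to the enzyme, read 9.62, 9.65 and 10.03 in sanroque, against 10.13, 10.06 and 10.12 in wild type, with a log2 fold of -0.34 ± 0.11. Neither gene's groups overlapped, and in both sanroque replicate 3 came closest to wild type. Without that array the log2 fold of Atp5mpl was -0.47, where it passed (limma, adjusted p = 0.0214). Atp5md, a small dimer subunit also known as DAPIT, had the largest log2 fold of the 44 members, -0.55 ± 0.20. It read 10.49, 10.50 and 10.58 in sanroque, against 11.33, 11.33 and 10.55 in wild type. The first and second wild-type arrays stood far above every sanroque array, and wild type replicate 3 stood within them, so the groups overlapped. Its other probe sets gave -0.42 and -0.43. Without wild type replicate 3 its log2 fold was -0.80 and passed (limma, adjusted p = 0.0103). Atp5l and Atp5j2, the subunits g and f, had log2 folds of -0.17 and -0.20.

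**Figure D2:**
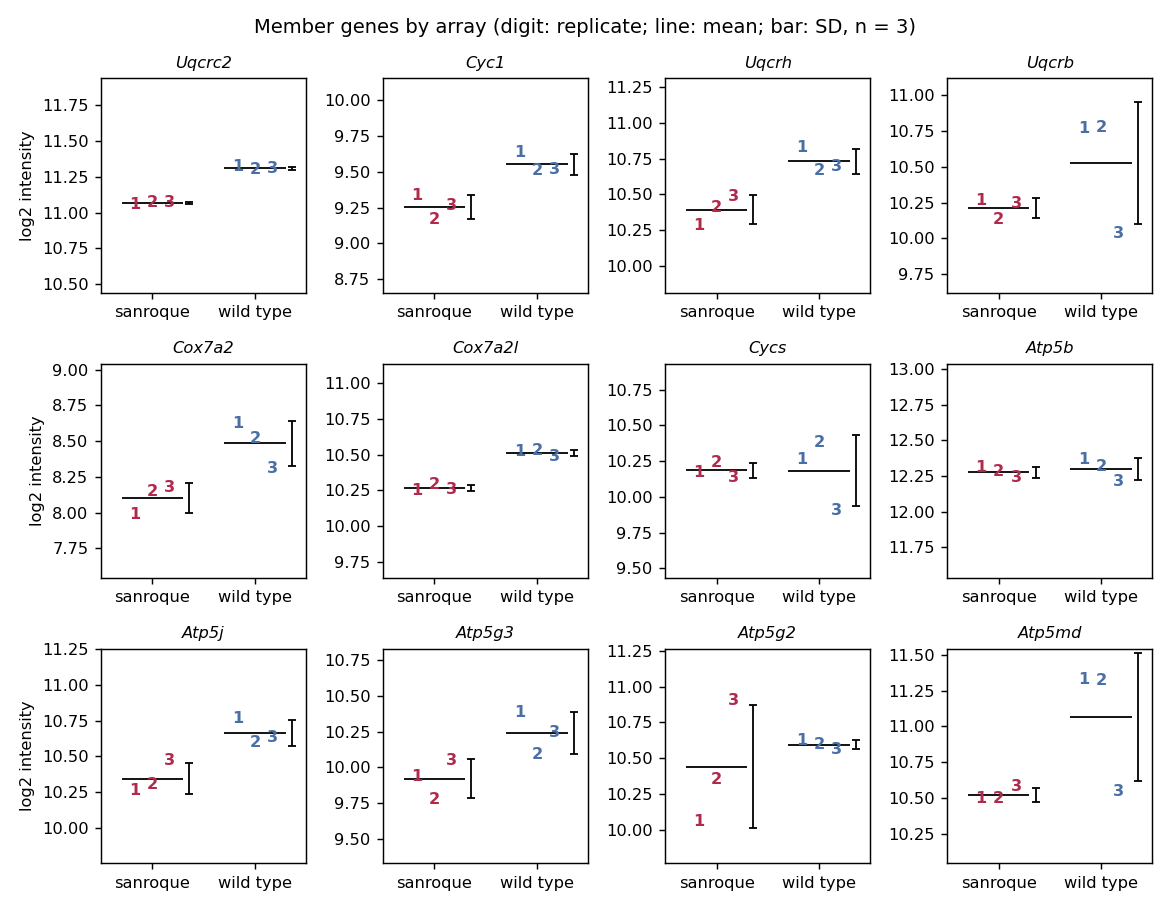
Log2 intensity of 12 genes in each array, with the replicate number as the plotting symbol, the mean of each genotype as a line and its SD (n = 3) as a bar; every panel spans 1.5 on the log2 scale. Uqcrc2 and Cox7a2l are tight within genotypes, wild type replicate 3 drops to or below the sanroque arrays in Uqcrb, Cycs and Atp5md, and sanroque replicate 3 is the highest array in Atp5g2.

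The arrays did not contribute evenly to the shift. After each gene was centred on its mean over the 6 arrays, the median deviation of the 44 members was -0.11, -0.09 and -0.03 in sanroque replicates 1 to 3, against 0.12, 0.09 and 0.04 in wild type replicates 1 to 3. Over all genes these medians lay between -0.03 and 0.05. The median deviation was thus lower in every sanroque array than in every wild-type array, with the replicates numbered 3 of each genotype closest together. Gene by gene, all sanroque arrays lay below all wild-type arrays in 12 of the 44 members. The share was 13.2% of all genes and 24.2% of those with a mean log2 of at least 8. Sanroque replicate 3 was the highest sanroque array in 23 members, and wild type replicate 3 the lowest wild-type array in 24. Sanroque replicate 1 was the lowest of all 6 arrays in 20 members, and wild type replicate 1 the highest in 18 and the lowest in 0.

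**Figure D3:**
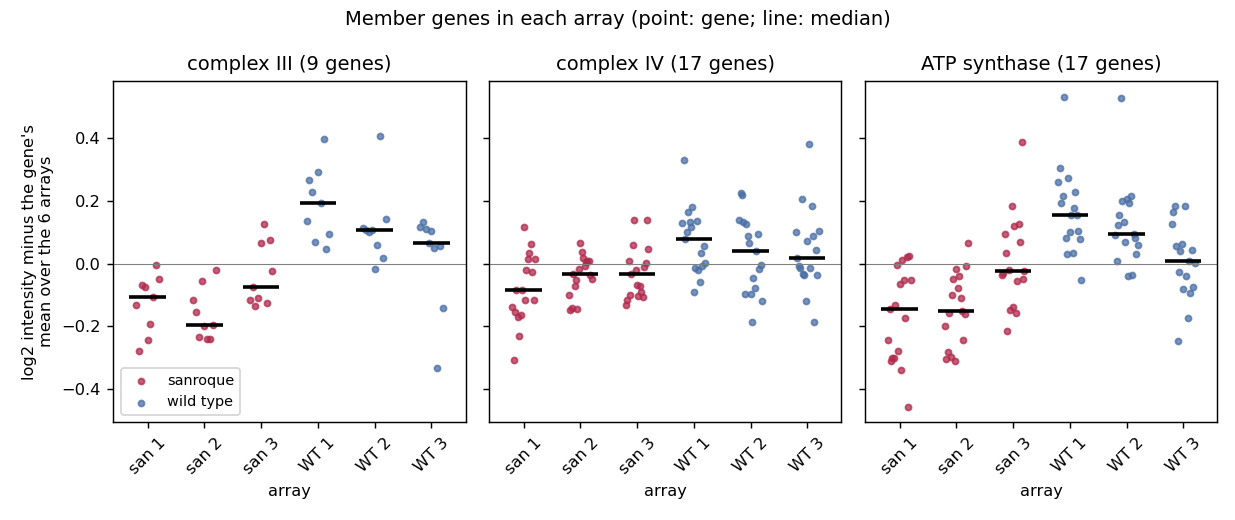
Log2 intensity of each gene in each array minus that gene's mean over the 6 arrays, for the genes of complex III, complex IV and the ATP synthase; black lines are medians. For the ATP synthase the medians are -0.14, -0.15 and -0.02 in sanroque replicates 1 to 3 and 0.16, 0.09 and 0.01 in wild type replicates 1 to 3.

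Some of these small genes have processed copies elsewhere in the genome, and signal from near-identical copies cannot be told apart. In the 13 members with several probe sets, 21 of the 22 further ones had the direction of the one used. The exception was a Cycs probe set, and 0 of the 22 passed.

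Genes that work with these complexes were compared by lists. The 34 complex I subunits had a median log2 fold of -0.22, with 31 below 0, 2 lower and 0 higher past the test, against 2.51% of all genes called lower and 3.26% called higher. Among genes with a mean log2 of at least 8, 6.38% were called lower and 3.49% higher. Ndufa9 and Ndufb11, accessory subunits, fell by 0.48 and 0.37 on the log2 scale (limma, adjusted p = 0.0429 and 0.0273). In 15 of the 34 every sanroque array was below every wild-type array. The share was 13.2% of all genes and 24.2% of those with a mean log2 of at least 8. In 1 of the 34 every sanroque array was above, against 9.46% and 13.5% of the same sets. The 4 complex II subunits had a median of -0.27, and 0 passed. At an unadjusted p below 0.05, 3 were lower, against 10.7% of all genes and 23.3% of those with a mean log2 of at least 8. Of the 3, Sdhd and Sdhc, the membrane anchors of complex II, had log2 folds of -0.32 and -0.28. Whether complexes I and II differ from complexes III, IV and the ATP synthase was not tested.

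Assembly factors build these complexes. Of 6 for complex III, Bcs1l, which inserts the Rieske protein, fell by 0.43 (limma, adjusted p = 0.0301), and the list's median was -0.23. Of 18 for complex IV, Surf1, needed to build its catalytic core, fell by 0.45 (limma, adjusted p = 0.0262), with a median of -0.15. Among 5 ATP synthase assembly and inhibitor genes 0 passed. An unadjusted p below 0.05 was found for 3, all lower, against 10.7% of all genes and 23.3% of the brighter ones defined above. Atpaf2 was at -0.47 and Atpaf1 at -0.34. Slc25a4, an ADP/ATP carrier of the inner membrane, fell by 0.34 (limma, adjusted p = 0.0317), and it was the only called gene of 7 carriers and pores, whose median was -0.18. Over all genes, 2.51% were called lower, and 6.38% of those with a mean log2 of at least 8. Each of Ndufa9, Ndufb11, Bcs1l, Surf1 and Slc25a4 lost its call in at least 4 of the 6 fits that left out 1 array, including those without wild type replicate 1, and kept a log2 fold below 0 in all 6. Median centring ended the calls of Ndufa9, Bcs1l and Surf1.

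Regulators of mitochondrial gene expression numbered 14, with a median of -0.12, and 0 passed. An unadjusted p below 0.05 was found for 2, both lower, against 10.7% of all genes. The 2 were Tfb1m, which methylates mitochondrial ribosomal RNA, at -0.55 and the coactivator gene Pprc1 at -0.27. Of 4 measured genes of cytochrome c dependent apoptosis 0 passed, and 2 were higher and 1 lower at an unadjusted p below 0.05. Of all 19938 genes, 1626 were higher and 2140 lower at that threshold. Apaf1, the scaffold that cytochrome c binds, had a log2 fold of 0.61 and the pore-forming Bak1 one of 0.34, with adjusted p-values of 0.0914 and 0.124 (limma). Mitochondrially encoded subunits were not analysed here.

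**Figure D4:**
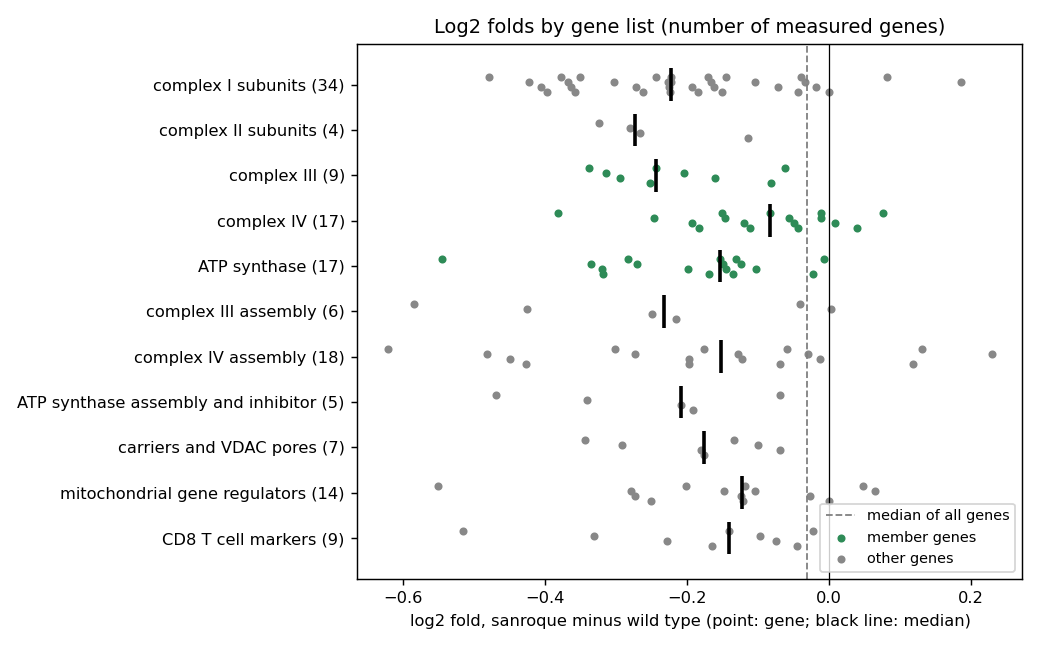
Log2 fold of every measured gene, sanroque minus wild type, in the respiratory complexes, their assembly factors and related lists, with the list's median as a black line and the median of all genes as a dashed line. The medians lie between -0.27 for complex II and -0.08 for complex IV, and the CD8 T cell markers at -0.14 lie in the same range.

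Markers of other cell types moved with genotype. The summed intensity of 12 B cell markers was 9725 to 12188 in sanroque arrays, against 2605 to 6606 in wild-type arrays. That of 15 myeloid markers was 8902 to 13508, against 980 to 1772. The B cell list includes the MHC class II pathway genes H2-Ab1, Cd74 and H2-Eb1, which averaged 11.27, 10.86 and 10.60 in sanroque. Its sum thus leans on genes that are not limited to B cells. The lowest intensity on any array was 9.56, so a level above 0 does not show that a marker was expressed. Pax5, a B cell factor, averaged 8.64 in sanroque and 7.43 in wild type on the log2 scale. Of the 12 and 15 markers, 6 and 13 passed as higher, and 0 as lower. Cycling-cell markers passed as higher in 7 of 11 and effector markers in 8 of 10. Over all genes 3.26% passed as higher and 2.51% as lower. The defining genes of the sorted cells were bright: Cd8a read 12.99, 13.02 and 12.99 in sanroque, against 13.05, 13.00 and 13.01 in wild type. The summed intensity of 9 CD8 T cell markers was 38523 to 40112 in sanroque, against 42458 to 43870 in wild type. Their median log2 fold was -0.14, close to the -0.15 of the respiratory members, and Cd3d and Cd247, chains of the T cell receptor complex, fell by 0.52 and 0.33. With 1 array left out, Cd3d kept its call in 2 of 6 fits and Cd247 in 0 of 6. In these bulk samples fewer cells of a type and less RNA per cell cannot be told apart. A score of B cell and myeloid markers ran from 0.788 to 1.14 in sanroque arrays, against -1.29 to -0.454 in wild-type arrays. The score thus separated the genotypes fully. In a fit with it as a covariate the standard error of Uqcrc2 was 0.218, against 0.0589 without it, and 0 of all 19938 genes were called (limma, 1632 at an unadjusted p below 0.05). That fit therefore cannot separate these cells from the genotype. The part of effector and cycling cells in the shift was not tested. Rc3h1, which encodes Roquin, had a log2 fold of 0.14 ± 0.10, which does not check the labels because the allele is a point mutation.

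How many members passed depended on how arrays were weighted. With limma's array weights, 22 of the 44 members were called lower and 0 higher, where 13.7% of all genes were called lower: 7 of complex III, 6 of complex IV and 9 of the ATP synthase. After quantile normalization Uqcrh, Cox7a2 and Atp5j were called lower, where 3.57% of all genes were. Of the 44 members, 34 had a mean log2 of at least 8. The share called among all genes that bright was not computed under either setting. The members' median stayed below 0 in all the alternatives run, between -0.22 and -0.11.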

How the data were processed

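RNA of 6 sorted CD8+ T cell samples was measured, 3 sanroque and 3 wild type. For each array the authors deposited linear intensities by probe set, and per the labels the target was biotinylated cRNA. The submitters' processing notes name Partek, with no role. How background was corrected, probes summarized and arrays normalized is not given in the sources used here. Values ran from 9.56 to 31996, with medians of 53.6 to 56.9 per array, and were analysed as log2 without renormalizing them. Folds that start near the low end understate the change, and the number of arrays limits the precision.

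Of 35399 probe sets, 21789 had exactly 1 symbol, 1621 had several and 11989 were not listed. Updating symbols through the GRCm38.p6 gene table, which matched 19856 of 19938 genes, added 0 members and removed 0. Genes were compared with limma 3.58.1 in R 4.3.3 (lmFit and eBayes, two-sided, Benjamini-Hochberg adjustment), without a filter on dim genes or covariates. P-values set the difference between genotypes against the spread between these samples, which eBayes moderates with the spread of all genes. The log2 folds carry the standard error of the moderated fit.

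The members, the lists and the tests were chosen with earlier results of these data known. Values by array are given for the brightest member and the one with the largest log2 fold in each role group, and for those singled out after their values were seen. Other lists name up to 4 called genes, or the 2 with the smallest p. Atp5md and Atp5mpl were put with the membrane subunits after the annotation was read.

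On 20 simulated data sets, with 200 of 19938 genes changed, 4.65% of calls were false. Deviations of same-numbered samples from the mean of their genotype had correlations of -0.05, -0.16 and -0.36. With 3 arrays per genotype these values cannot show whether the numbers pair the samples. The main fit treated the samples as unpaired. Alternatives covered the probe set, a dim filter, normalization, variance models, array weights, a replicate block, a marker score, membership, a fold minimum and leaving out arrays. Promoters came from RefSeq. Plots used matplotlib 3.10.9 (Python 3.11.15).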

Additional observations from a re-analysis of the deposited data

How the results depend on the processing

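The members' median log2 fold of -0.15 was -0.20 with median centring, -0.21 with array weights and -0.22 with the marker score as a covariate, and -0.18 to -0.12 when 1 array was left out. By complex, the medians were -0.35 (III), -0.12 (IV) and -0.26 (ATP synthase) with array weights, -0.13 for complex IV with median centring and without its tissue isoforms, also -0.13 over genes with a mean log2 of at least 8 (chosen after seeing the data), and -0.30 for the ATP synthase with the covariate. Leaving out 1 array gave -0.30 to -0.17 for complex III and -0.23 to -0.15 for the ATP synthase. Members called lower numbered 22 with array weights (7, 6 and 9 by complex) and 3 with quantile normalization (1, 1 and 1), and 0 to 3 with 1 array left out (0 to 1, 0 to 1 and 0 to 2). The median of all genes was -0.080 with median centring, 0.082 with the covariate, and -0.053 to 0.00078 with 1 array left out.

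Over all genes, calls numbered 1151, and 631 with median centring, 4733 with array weights, 301 with the replicate block, 0 with the covariate (limma; 1632 at an unadjusted p below 0.05), 353 without sanroque 1 and wild type 2 (the arrays highest in the marker score, a choice that brings the genotypes no closer in it), 591 with a fold minimum of 1.5, and 218 to 1315 with 1 array left out. No member was called with or without the block, while Ndufa9, Ndufb11, Bcs1l, Surf1, Slc25a4, Cd3d and Cd247 lost their calls under it (adjusted p of 0.115 to 0.146). Cd3d also lost its call with median centring, and Cd247 with quantile normalization and with the trended robust fit. Cycs was -0.046 with median centring, -0.046 with array weights, -0.58 with the covariate, and -0.14 to 0.10 with 1 array left out.

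Signs also turned in members with small, uncalled log2 folds. Quantile normalization gave 0.019 for Atp5a1 and 0.017 for Atp5b. Median centring gave -0.0097 for Cox5a and -0.041 for Cox7a1. Array weights gave 0.061 for Atp5a1, -0.0084 for Cox5a, -0.016 for Cox7a1 and 0.045 for Cox6a2. The covariate gave -0.36 for Cox5a and 0.45 for Cox8b. Without both arrays highest in the marker score, Atp5a1 was 0.045, Atp5g2 0.039 and Cox7a1 -0.055. With 1 array left out, Atp5a1 ran from -0.042 to 0.020, Atp5b from -0.066 to 0.012, Cox5a from -0.045 to 0.10, Cox7a1 from -0.050 to 0.063 and Atp5g2 from -0.39 to 0.036. Cox6a2 (-0.085 to -0.0014) and Cox8c (0.038 to 0.13) kept their sign. The cause was not tested.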
